A study of Mus musculus with 4 samples.

Results

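The glycolytic enzymes described here are 10 genes that carry a glucose molecule from its entry into the pathway to lactate, namely Hk1, Gpi1, Aldoa, Tpi1, Gapdh, Pgk1, Pgam1, Eno1, Pkm and Ldha. They were chosen by name, and all 10 were found among the 15093 genes of the single-cell count table. The table holds 5794 peripheral blood mononuclear cells of 4 female wild-type C57BL/6 mice aged 3.2 ± 0.3 months. The left ear of 2 mice (treated, 1524 and 1705 cells) had been exposed to non-thermal plasma, a cold ionised argon jet, for 10 min, and 2 mice (untreated, 993 and 1572 cells) had only been anaesthetised. All 4 mice received ketamine and xylazine, so both groups share the anaesthetic. Their blood was collected 120 min later, counted from the treatment or, in untreated mice, from when anaesthesia began. The 10 min of exposure came before the 120 min in treated mice only. Time under anaesthesia was therefore not matched, and its part cannot be told apart from that of the treatment. Each mouse gave 1 library, and the mouse was the replicate in every test.

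Glycolysis splits glucose into pyruvate, and lactate dehydrogenase then turns pyruvate into lactate while it restores the cofactor that the pathway consumes. Resting lymphocytes run this pathway at a low rate and burn most pyruvate in their mitochondria. Lymphocytes that are activated and start to divide raise glucose uptake, glycolytic enzymes and lactate output together, and the hypoxia-inducible factor and Myc are known transcription factors of these genes.

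Levels are given as CPM, a gene's unique molecular identifiers (UMIs, tags that mark single captured RNA molecules) in 1000000 UMIs of a mouse and cell type. The tags come from the 3' end of a transcript, so a level does not grow with transcript length, but capture differs between genes and the enzymes were compared with themselves only. Fold changes and adjusted p-values come from edgeR's quasi-likelihood test on the summed UMIs of each mouse and type, with TMM scaling, p-values being adjusted by Benjamini-Hochberg across every gene tested, and a gene was called at an adjusted p under 0.05. TMM gives less weight to a few abundant genes, and ribosomal protein and mitochondrial genes took 30.2 to 32.7% of the UMIs of a B cell sum, 37.4 to 40.1% for CD4+ and 41.4 to 45.2% for CD8+ T cells. For that reason a fitted fold can differ from the ratio of the CPM values printed beside it.

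The 3130 B cells gave sums of 2019838 to 3457389 UMIs per mouse, the 1517 CD4+ T cells 1543988 to 2111071, the 600 CD8+ T cells 661598 to 1110933 and the 474 cells annotated as plasmablasts 279795 to 636132. The 73 cells annotated as NK cells, with 13 to 22 per mouse, were described and not tested. The split into B and T cells matched its markers: Cd79a was seen in 98.9% of B cells and Cd3d in 91.1% of CD4+ and 95.8% of CD8+ T cells. Between the T cell types, Cd4 was seen in 44.0% of CD4+ and 0.67% of CD8+ T cells. Cd8b1 was seen in 93.2% of CD8+ and 7.6% of CD4+ T cells. Cluster 7, annotated mostly as CD4+, was mixed: its CD8 markers (Cd8a and Cd8b1) summed to 127 to 365 CPM per mouse. They summed to 6.9 to 16.2 in cluster 3 and 8.4 to 18.5 in cluster 5. For the other labels the defining markers were sparse or mixed: Jchain, which plasma cells make in bulk, had 0 UMIs in the annotated plasmablasts, Prdm1 was seen in 1.5% and Cd79a in 99.2% of them, and the annotated NK cells carried Cd3d in 98.6% of cells. Of NK receptor genes, Ncr1 and Klrb1c were each seen in 1.4% and Klre1 in 16.4% of the annotated NK cells. The 4 NK markers summed to 11.4 to 396 CPM per mouse there against 0 to 8.03 in the other types. Of these 83 marker UMIs in annotated NK cells, 55 were from Gzma, which was seen in only 1.4% of the cells. Cd8b1 was seen in 74.0% and Cd8a in 63.0% of the annotated NK cells. The authors derived the types from clusters of the same counts, so the p-values between types hold for the given annotation. Only 4 of the cell barcodes occurred in more than 1 mouse.

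In the mouse genome build GRCm38 (GENCODE vM21) the genes lie as follows: Hk1 on chr10:62268855-62379908, Gpi1 on chr7:34201330-34230336, Aldoa on chr7:126795234-126800751, Tpi1 on chr6:124810586-124814296, Gapdh on chr6:125161715-125166467, Pgk1 on chrX:106187100-106203699, Pgam1 on chr19:41911923-41918660, Eno1 on chr4:150236721-150248879, Pkm on chr9:59656368-59679375 and Ldha on chr7:46841475-46855627. Aldoa is a symbol of 2 gene IDs in this annotation, and the table held 1 row for it, whose ID it does not give. Reads from the transcript end could be shared with other genes for 2 of the 10: of the 411 stretches of 90 bases in the last 500 bases of the transcript, 328 of Gapdh occurred without a mismatch in transcripts of 65 other annotated genes, mostly processed pseudogenes, and 219 of Eno1 in its near-copy Eno1b or a pseudogene. The other 8 enzymes had 0 shared stretches. Gapdh and Eno1 counts are therefore less certain than those of the others.

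The 4 genes below were picked for their differences between T and B cells, Ldha and Pgk1 being higher and Tpi1 lower in both T cell types and Pgam1 lower in CD4+ T cells, so that promoters of genes from both directions can be read side by side. Each line gives RefSeq sequence of build GRCm38.p6 just before a gene's start, 5' to 3' on the strand of the gene, with every ACGTG and GCGTG in capitals. These letters are the core that the hypoxia-inducible factor recognises, and both strands were searched, so the core also appears as CACGT and CACGC. The stretches are chr7:46845554-46845803 (plus strand, inside the annotated span of the gene but outside its exons), chrX:106186850-106187099 (plus strand), chr6:124814297-124814408 (minus strand, cut where the GENCODE exon begins) and chr19:41911621-41911870 (plus strand).
Ldha: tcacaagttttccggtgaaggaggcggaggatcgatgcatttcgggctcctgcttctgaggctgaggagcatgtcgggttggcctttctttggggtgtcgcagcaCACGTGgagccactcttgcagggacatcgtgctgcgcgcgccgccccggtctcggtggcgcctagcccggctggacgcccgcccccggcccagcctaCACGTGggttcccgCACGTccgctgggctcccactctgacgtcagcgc
Pgk1: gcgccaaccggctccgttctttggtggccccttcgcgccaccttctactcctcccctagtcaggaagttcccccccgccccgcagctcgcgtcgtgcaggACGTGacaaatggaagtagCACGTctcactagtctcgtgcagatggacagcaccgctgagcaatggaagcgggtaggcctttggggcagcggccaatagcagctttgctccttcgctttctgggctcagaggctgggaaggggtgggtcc
Tpi1: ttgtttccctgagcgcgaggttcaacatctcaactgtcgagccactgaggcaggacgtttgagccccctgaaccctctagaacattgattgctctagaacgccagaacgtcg
Pgam1: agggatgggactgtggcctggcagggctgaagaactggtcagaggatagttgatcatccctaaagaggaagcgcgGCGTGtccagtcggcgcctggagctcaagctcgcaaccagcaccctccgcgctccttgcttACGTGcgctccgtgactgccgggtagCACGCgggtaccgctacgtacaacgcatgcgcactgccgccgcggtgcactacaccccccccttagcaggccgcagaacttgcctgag

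In the 250 bases before the start, ACGTG was present in 4 of the 10 enzymes (Aldoa, Pgk1, Pgam1 and Ldha) and in 16.6% of all 32851 RefSeq promoter windows of the same length. GCGTG was present in 3 enzymes (Gapdh, Pgam1 and Eno1) and in 28.2% of all windows, and either core in 6 enzymes and 38.6% of all windows. Ldha held 5 ACGTG matches over both strands, of which 4 came from 2 copies of CACGTG, the E-box that Myc recognises and that contains ACGTG on each strand. Pgk1 held 2 ACGTG matches, Pgam1 1 ACGTG and 2 GCGTG, and Tpi1, Hk1, Gpi1 and Pkm held neither core. Only the first 112 bases of the Tpi1 window and 42 of the Pkm window lay before a GENCODE exon. The motif counts of Tpi1 and Pkm therefore include exon bases. CACGTG was present in 1 enzyme, Ldha, and in 6.02% of all windows. GGGCGG, a GC box, was present in 6 enzymes and 32.7% of all windows. A match describes letters in this window and not a bound site. Of the genes with ACGTG, Pgk1 and Ldha were called higher and Aldoa and Pgam1 lower in CD4+ T cells than in B cells.

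The enzymes did not move together between T and B cells. CD4+ T cells had 6 of the 10 enzymes called higher than B cells (Hk1, Gapdh, Pgk1, Eno1, Pkm and Ldha), 3 called lower (Aldoa, Tpi1 and Pgam1) and Gpi1 not called. Among all 9229 genes tested, 25.7% were called higher and 26.4% lower. The median log2 fold change was 0.43 over the enzymes and 0.00202 over all genes. CD8+ T cells had 6 called higher than B cells (Hk1, Gpi1, Gapdh, Pgk1, Pkm and Ldha), 2 called lower (Aldoa and Tpi1) and 2 not called, against 22.8% higher and 24.2% lower of all genes. The median was 0.28 over the enzymes and -0.00726 over all genes. The 2 sets of calls share the B cell sums.

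**Figure D1:**
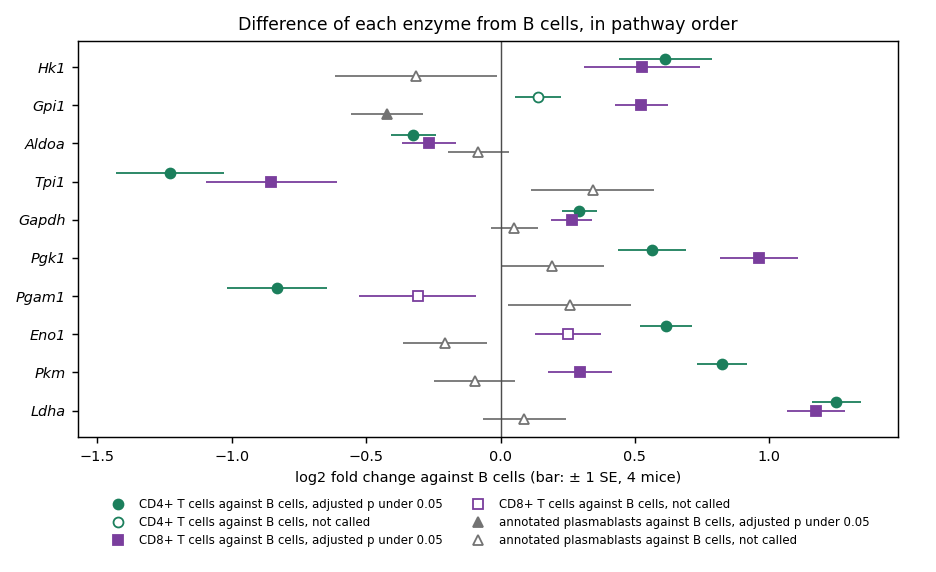
Log2 fold change of each enzyme against B cells (x axis, bars ± 1 SE, 4 mice) in CD4+ T cells, CD8+ T cells and annotated plasmablasts, with the enzymes in pathway order on the y axis. Filled symbols have an adjusted p under 0.05. Ldha lies farthest to the right at 1.25 and 1.17 in the T cells and Tpi1 farthest to the left at -1.23 and -0.85, while 9 of the 10 plasmablast symbols are open.

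Ldha makes the lactate dehydrogenase subunit that favours lactate from pyruvate, the last step of the pathway. Its CPM in CD4+ T cells was 131.7 and 149.7 in treated mice 1 and 2 and 134.1 and 125.7 in untreated mice 1 and 2. In CD8+ T cells it was 131.6 and 111.6 in treated and 131.5 and 102.3 in untreated mice. In B cells it was 61.9 and 61.4 in treated and 58.4 and 56.4 in untreated mice. Every T cell value lay above every B cell value, with the lowest, 102.3, well over the highest B cell value. The log2 fold change was 1.25 ± 0.091 (SE) for CD4+ T cells (adjusted p = 1.9e-20) and 1.17 ± 0.11 for CD8+ T cells (adjusted p = 1.9e-15), or 2.38- and 2.25-fold. CD8+ and CD4+ T cells differed by -0.077 ± 0.10, which was not called. Annotated plasmablasts had 75.5 and 56.2 CPM in treated and 82.2 and 61.6 in untreated mice, a range that overlapped that of B cells.

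Of 15 paralogs of the enzymes, 8 were in the count table and 1 had enough counts to be tested between types. This was Ldhb, the sister gene whose subunit favours pyruvate. It had 28.4 and 17.8 CPM in CD4+ T cells of the treated and 31.1 and 23.9 in those of the untreated mice. In CD8+ T cells it had 15.1 and 8.1 CPM in treated and 12.1 and 12.5 in untreated mice. In B cells of all 4 mice only 3 of 11147828 UMIs were from Ldhb, with 0 in untreated mouse 1, against 176 of 6949762 in CD4+ T cells. Ldhb UMIs were thus rare in B cells, and the share of UMIs was 94.1 times that in B cells (exact 95% interval 31.7 to 461, counting error only) in CD4+ and 42.9 times (13.6 to 217) in CD8+ T cells. At least 1 Ldhb UMI was seen in 6.89 to 14.3% of CD4+ T cells per mouse and in 0 to 0.12% of B cells, whose median depths were 4429 and 3364 UMIs. With every cell thinned to 2000 UMIs the shares were 4.09 to 6.69% and 0 to 0.11%. CD8+ T cells were lower in Ldhb than CD4+ T cells (log2 fold change -0.96 ± 0.28, adjusted p = 0.013). That call was lost without untreated mouse 1 (-0.87), with cells thinned to 2000 UMIs (-0.84) and in DESeq2 (-0.95).

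Pkm encodes the pyruvate kinase of these cells, which makes pyruvate and ATP, and the counts do not separate its splice forms. In CD4+ T cells it had 131.7 and 119.3 CPM in treated and 125.6 and 115.4 in untreated mice. In CD8+ T cells it had 83.6 and 93.6 CPM in treated and 69.5 and 64.8 in untreated mice, and in B cells 70.6 and 78.5 in treated and 69.8 and 74.2 in untreated mice. CD4+ T cells stood above both other types in every mouse, while the CD8+ and B cell values overlapped. The log2 fold change against B cells was 0.82 ± 0.093 for CD4+ T cells (adjusted p = 3.5e-12), and CD8+ T cells differed from CD4+ T cells by -0.53 ± 0.12 (adjusted p = 0.00048). The difference of CD8+ T cells from B cells, 0.30 ± 0.12 (adjusted p = 0.037), was higher in 2 of 4 mice by CPM and was 0.11 and not called when libraries were scaled by total UMIs alone. It was also not called without treated mouse 1 (0.23) or treated mouse 2 (0.21) or in DESeq2 (0.31). The difference between CD8+ and CD4+ T cells was not called with cells thinned to 2000 UMIs (-0.41).

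Tpi1, which interconverts the triose phosphates, went the other way. In B cells it had 28.1 and 22.7 CPM in treated and 23.8 and 24.9 in untreated mice. In CD4+ T cells it had 9.5 and 10.9 CPM in treated and 6.5 and 13.5 in untreated mice, and in CD8+ T cells 9.6 and 11.7 in treated and 12.1 and 14.8 in untreated mice. No T cell value reached the lowest B cell value of 22.7. These levels rest on 10 to 21 UMIs per mouse in CD4+ and 7 to 13 in CD8+ T cells. The log2 fold change was -1.23 ± 0.20 in CD4+ (adjusted p = 2.2e-07) and -0.85 ± 0.24 in CD8+ T cells (adjusted p = 0.0023). With cells thinned to 2000 UMIs the CD8+ value was the same -0.85 and was no longer called. Annotated plasmablasts had 31.4 and 40.1 CPM in treated and 32.2 and 30.8 in untreated mice, all above the B cell values, but the difference of 0.34 ± 0.23 was not called.

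Pgam1, the phosphoglycerate mutase, was also lower in CD4+ T cells. It had 13.7 and 12.6 CPM there in treated and 13.6 and 12.3 in untreated mice, and 24.0 and 26.1 in B cells of the treated and 24.8 and 22.8 in those of the untreated mice. The CD4+ and B cell values were apart in every mouse, and the log2 fold change was -0.83 ± 0.19 (adjusted p = 9.1e-05). CD8+ T cells had 19.2 and 15.3 CPM in treated and 22.7 and 13.6 in untreated mice, between the other types, and neither their difference from B cells (-0.31 ± 0.22) nor that from CD4+ T cells (0.52 ± 0.25) was called. With total UMIs as the only scaling the difference from B cells was -0.50 and called (adjusted p = 0.045). Annotated plasmablasts had the highest mean of the tested types, 31.0 ± 6.0 CPM (SD, n = 4). They exceeded the B cells of the same mouse in 4 of 4 mice, the ranges overlapped, and the difference of 0.26 ± 0.23 was not called.

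Pgk1, the phosphoglycerate kinase that makes the first ATP of the pathway, rose in both T cell types. CD8+ T cells had 75.4 and 62.1 CPM in treated and 54.4 and 63.6 in untreated mice. CD4+ T cells had 51.2 and 62.5 in treated and 49.2 and 47.7 in untreated mice, and B cells 39.3 and 36.5 in treated and 39.6 and 34.8 in untreated mice. Both T cell types lay above B cells in every mouse and overlapped each other. The log2 fold change was 0.96 ± 0.14 in CD8+ (adjusted p = 2.9e-08) and 0.56 ± 0.13 in CD4+ T cells (adjusted p = 0.00010), and the difference between CD8+ and CD4+ T cells, 0.40 ± 0.14, was not called (adjusted p = 0.059), but was without treated mouse 2 (0.51, adjusted p = 0.043).

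Eno1, the enolase, was higher in CD4+ T cells than in B cells (log2 fold change 0.62 ± 0.096, adjusted p = 7.2e-08) and lower in CD8+ than in CD4+ T cells (-0.37 ± 0.12, adjusted p = 0.033). The latter call was lost without treated mouse 1 (-0.38), treated mouse 2 (-0.32) or untreated mouse 2 (-0.35) and in DESeq2 (-0.36). It also spread widely between mice. In CD4+ T cells it had 80.5 and 119.3 CPM in treated and 65.4 and 116.1 in untreated mice. In B cells it had 57.8 and 84.7 CPM in treated and 46.5 and 70.1 in untreated mice, and in CD8+ T cells 57.6 and 79.2 in treated and 54.4 and 81.8 in untreated mice. Mouse 2 of each group was above mouse 1 of both groups in these types and in the annotated plasmablasts, so the spread crossed the treatment groups and the ranges of the types overlapped although CD4+ exceeded B cells in 4 of 4 mice. The same mice had fewer UMIs per cell, with medians of 3655 and 3104.5 against 4480.5 and 4465. With every cell thinned to 2000 UMIs, B cells had 84.3 and 69.3 CPM in mouse 2 of each group and 58.8 and 38.9 in mouse 1. In plasmablasts untreated mouse 2 (60.2 CPM, 10 UMIs) then fell below treated mouse 1 (64.1 CPM, 20 UMIs). Random thinning leaves the expected CPM of a cell unchanged, so it cannot tell if depth bears on this order. What else differed between these libraries was not tested.

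Gapdh, which oxidises glyceraldehyde phosphate, was called higher in both T cell types by small folds. In CD4+ T cells it had 289.4 and 304.5 CPM in treated and 240.9 and 281.8 in untreated mice. In B cells it had 239.8 and 275.2 CPM in treated and 219.8 and 222.7 in untreated mice, and in CD8+ T cells 265.9 and 279.0 in treated and 241.8 and 223.9 in untreated mice. The ranges of the 3 types overlapped, and within each mouse both T cell types were above B cells. The log2 fold change was 0.29 ± 0.065 in CD4+ (adjusted p = 9.0e-05) and 0.26 ± 0.075 in CD8+ T cells (adjusted p = 0.0023). The CD8+ call ended with total UMIs as the only scaling (0.07) and with thinned cells (0.23). The annotated NK cells, not tested, had 427.5 and 340.6 CPM in treated and 282.8 and 350.1 in untreated mice.

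The enzymes at the top of the pathway differed in direction between T and B cells. Aldoa, the aldolase, was lower in T cells, with 103.2 to 131.3 CPM in CD4+ and 96.0 to 140.6 in CD8+ T cells against 134.2 to 159.8 in B cells. Its log2 fold change was -0.32 ± 0.083 in CD4+ (adjusted p = 0.00066) and -0.27 ± 0.10 in CD8+ T cells (adjusted p = 0.023). CD4+ T cells lay below B cells throughout, whereas the CD8+ call was lost without treated mouse 1 (-0.22), treated mouse 2 (-0.19) or untreated mouse 2 (-0.22) and in DESeq2 (-0.24). Gpi1, the glucose phosphate isomerase, had 124.7 and 133.2 CPM in CD8+ T cells of the treated and 137.5 and 135.2 in those of the untreated mice, above its 104.4 to 115.9 in CD4+ T cells and 99.5 to 108.9 in B cells. CD8+ T cells differed from B cells by 0.52 ± 0.097 (adjusted p = 4.1e-06) and from CD4+ T cells by 0.38 ± 0.10 (adjusted p = 0.0046). The call against CD4+ T cells was lost without treated mouse 2 (0.34) and with total UMIs as the only scaling (0.26). CD4+ T cells differed from B cells by 0.14 ± 0.085, which was not called, but was 0.23 and called with total UMIs without ribosomal protein and mitochondrial genes as the scaling (adjusted p = 0.017). Hk1, the hexokinase that traps glucose in the cell, had 17.2 to 20.3 CPM in B cells, 15.5 to 37.4 in CD4+ and 14.4 to 39.3 in CD8+ T cells. It was called higher in CD4+ (0.61 ± 0.17, adjusted p = 0.0017) and CD8+ T cells (0.52 ± 0.22, adjusted p = 0.039) although treated mouse 2 had less Hk1 in both than in its B cells, and the CD8+ call was lost without treated mouse 1 (0.44) or untreated mouse 1 (0.31) and in DESeq2 (0.55).

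**Figure D2:**
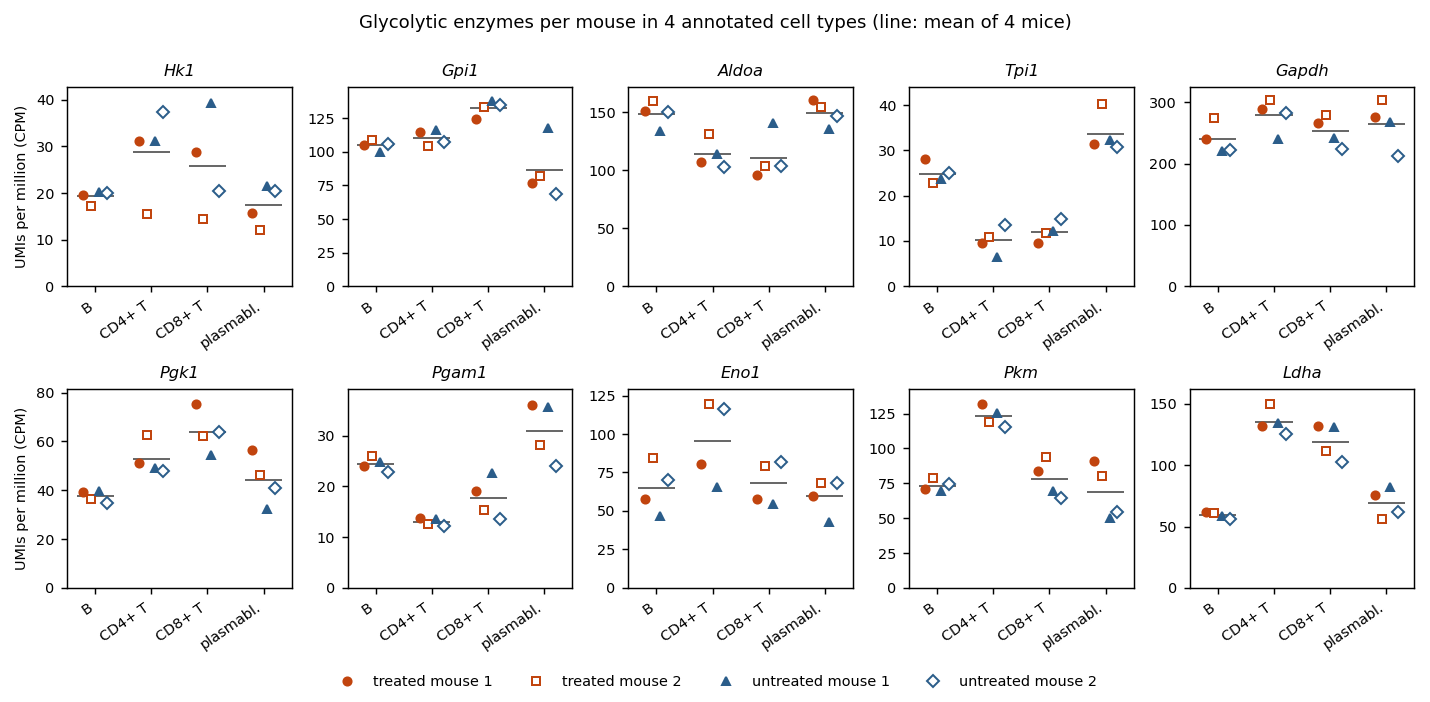
CPM of each enzyme (y axis, from 0) in each of the 4 mice by annotated cell type (x axis), with a line at the mean. Orange symbols are the treated and blue symbols the untreated mice. Ldha and Pkm are highest in CD4+ T cells, Tpi1 is lowest in both T cell types, and for Eno1 the open symbols of mouse 2 in each group stand above the filled symbols of mouse 1 in all 4 types.

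Between CD8+ and CD4+ T cells, 1 enzyme was called higher (Gpi1) and 2 lower (Eno1 and Pkm), against 6.56% higher and 5.1% lower of all genes tested. Between annotated plasmablasts and B cells, 0 enzymes were called higher and 1 lower, against 8.53% higher and 8.09% lower of all genes tested. DESeq2 made the same counts of 0 and 1 there. The enzyme called lower was Gpi1 (-0.42 ± 0.13, adjusted p = 0.018), with 77.0 and 82.3 CPM in plasmablasts of the treated and 117.9 and 68.5 in those of the untreated mice. Untreated mouse 1 stood above its own B cells (99.5 CPM), against the direction of the call, and the call was lost without treated mouse 1 (-0.37), treated mouse 2 (-0.38) or untreated mouse 2 (-0.35).

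Scaling bore on the T cell contrasts. With total UMIs as the only scaling, the median log2 fold change of all genes tested was -0.20 for CD8+ T cells against B cells, -0.12 for CD8+ against CD4+ T cells and 0.086 for plasmablasts against B cells. The split of calls over all genes went from 2108 higher and 2231 lower to 1543 and 3062, from 605 and 471 to 415 and 869, and from 787 and 747 to 1181 and 538. CD8+ T cells then had 3 enzymes called higher than B cells (Gpi1, Pgk1 and Ldha) in place of 6, and Pgam1 joined those called lower. For CD4+ T cells against B cells the median was -0.068 and the split went from 2369 and 2440 to 2039 and 2763. With ribosomal protein and mitochondrial genes left out of the total instead, the splits against B cells were 2872 and 2032 in CD4+ and 2494 and 1898 in CD8+ T cells, and Eno1 was called higher in CD8+ T cells (0.34, adjusted p = 0.018). Against B cells the directions of all 10 enzymes in both T cell types were the same with total UMIs as the only scaling.

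Other steps that feed or drain the pathway also had genes called between the types. Their counts in this and the next paragraphs stand beside shares of all 9229 genes tested against B cells. These were 25.7% higher and 26.4% lower in CD4+ and 22.8% and 24.2% in CD8+ T cells, and 8.53% and 8.09% in annotated plasmablasts. Of 5 genes of the phosphofructokinase step and its regulators that were tested, CD4+ T cells had 2 called higher than B cells, Bpgm (0.95 ± 0.19), which makes bisphosphoglycerate, and the platelet-type phosphofructokinase Pfkp (0.58 ± 0.14), and 1 lower, Pfkfb4 (-1.56 ± 0.25), which sets the level of a phosphofructokinase activator. CD8+ T cells had Bpgm (0.64 ± 0.24) and Pfkp (0.62 ± 0.17) called higher and Pfkfb4 (-2.46 ± 0.38) and the liver-type Pfkl (-1.0 ± 0.35) lower. The CD8+ call of Bpgm was lost without untreated mouse 1 (0.60) or untreated mouse 2 (0.42). It was also lost with total UMIs as the only scaling (0.45) and with no filter on low counts (0.59). The CD8+ calls were lost for Pfkp without untreated mouse 2 (0.39) and for Pfkl without treated mouse 1 (-0.57). In annotated plasmablasts Pfkfb3 was higher (0.76 ± 0.14, not called without treated mouse 1 at 0.49) and Pfkfb4 lower (-1.51 ± 0.39) than in B cells. The phosphofructokinase genes are not among the 10 enzymes, so this step is seen only here.

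Of 6 tested genes of glucose and lactate transport, 1 was called higher and 2 lower in CD4+ and likewise 1 and 2 in CD8+ T cells against B cells. Slc2a1, the main glucose transporter, was lower in CD4+ (-1.07 ± 0.20) and CD8+ T cells (-0.93 ± 0.25), and its CD8+ call was lost with cells thinned to 2000 UMIs (-0.73). Slc16a7, a monocarboxylate transporter, gave 262 UMIs in B cells and 7 in CD4+ T cells, so its share was 23.3 times higher in B cells (exact 95% interval 11.2 to 58.6, counting error only). Slc16a1, the other monocarboxylate transporter, was higher in CD8+ than in B cells (1.58 ± 0.28) and CD4+ T cells (1.11 ± 0.29, not called without treated mouse 2 at 1.0). Txnip, which restrains glucose uptake, was higher in CD4+ T cells than in B cells (0.35 ± 0.054) and lower in CD8+ than in CD4+ T cells (-0.36 ± 0.060). Slc2a3 from this list was also called higher in CD8+ than in CD4+ T cells. That call was lost in DESeq2 (0.67), with cells thinned to 2000 UMIs (0.72) and without untreated mouse 1 (0.40) or untreated mouse 2 (0.48). Between these types 2 of the 6 genes were called higher and 1 lower, against 6.56% and 5.1% of all genes tested.

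Pyruvate can also enter mitochondria, and of 10 tested genes of that step 3 were called higher and 2 lower in CD4+ and 3 higher and 1 lower in CD8+ T cells against B cells. Pdk1, the kinase that switches pyruvate dehydrogenase off, had 122.6 CPM on average in CD4+ and 100.2 in CD8+ T cells against 44.5 in B cells, with log2 fold changes of 1.54 ± 0.099 and 1.37 ± 0.12. Pdha1, a subunit of the dehydrogenase itself, was higher too, by 1.06 ± 0.13 and 0.74 ± 0.17. Mpc1, a subunit of the carrier that brings pyruvate into mitochondria, was lower (-0.42 ± 0.098 and -0.33 ± 0.12). Its CD8+ call was lost without treated mouse 2 (-0.16) or untreated mouse 2 (-0.33) and in DESeq2 (-0.29). It was also lost with ribosomal protein and mitochondrial genes left out of the total (-0.24). Between CD8+ and CD4+ T cells 1 of the 10 genes was called, Pdk3, which was higher in CD8+ T cells. Of all genes tested 6.56% were higher there. The Pdk3 call was lost in DESeq2 (0.84) and with total UMIs as the only scaling (0.70). Of 7 genes of the pentose phosphate branch, 0 were called higher and 3 lower in each T cell type: Pgls, Rpia and Taldo1, with -1.07 ± 0.092, -1.89 ± 0.18 and -0.40 ± 0.089 in CD4+ and -0.89 ± 0.11, -1.68 ± 0.23 and -0.52 ± 0.11 in CD8+ T cells.

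In annotated plasmablasts 2 of the 7 pentose phosphate genes were called higher than in B cells, Rpia (0.59 ± 0.18) and Pgd (0.88 ± 0.31). There 2 of 6 transport genes were called lower, Slc2a1 (-0.86 ± 0.29) and Txnip (-0.20 ± 0.067), against 8.53% higher and 8.09% lower of all genes tested. None of these 4 calls was made in DESeq2.

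Of 9 tested regulators of glycolytic genes, 3 were called higher and 2 lower in CD4+ and 2 higher and 3 lower in CD8+ T cells against B cells. Hif1a, the hypoxia-inducible subunit, averaged 159.5 CPM in CD4+ and 82.4 in CD8+ T cells and 90.8 in B cells, and was higher in CD4+ than in B cells (0.87 ± 0.085) and lower in CD8+ than in CD4+ T cells (-0.83 ± 0.11). Myc had 27.2 CPM in CD8+ T cells against 11.1 in B cells (1.45 ± 0.23) and 16.4 in CD4+ T cells (0.83 ± 0.23 for CD8+ against CD4+). The call between the T cell types was lost without untreated mouse 1 (0.79) or untreated mouse 2 (0.67) and with cells thinned to 2000 UMIs (0.73). Egln1, an oxygen-sensing hydroxylase that marks Hif1a for removal, was higher in both T cell types (0.97 ± 0.13 and 0.90 ± 0.16), and its relative Egln2 lower (-1.11 ± 0.17 and -1.09 ± 0.21).

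Summed over the 10 enzymes, the share of all UMIs was 0.0797% ± 0.0056 (SD, n = 4) in B cells, 0.0962% ± 0.0055 in CD4+ and 0.0881% ± 0.0038 in CD8+ T cells, 0.0825% ± 0.0069 in annotated plasmablasts and 0.105% ± 0.011 in annotated NK cells. CD4+ T cells were above B cells in every mouse, with 0.0961, 0.103, 0.0896 and 0.0960% against 0.0798, 0.0871, 0.0737 and 0.0782% in treated mice 1 and 2 and untreated mice 1 and 2. CD8+ T cells, with 0.0892, 0.0904, 0.0904 and 0.0824% in the same order, were also above the B cells of the same mouse in 4 of 4 mice, although the ranges of the types overlapped. The range of plasmablasts overlapped both. Leaving ribosomal protein and mitochondrial genes out of the total gave 0.116% in B cells, 0.157% in CD4+ and 0.155% in CD8+ T cells, so the gap between the T cell types nearly closed. Counted per cell, 2.88 ± 0.45 UMIs of the enzymes were captured in B cells, 4.45 ± 0.70 in CD4+ and 5.13 ± 0.87 in CD8+ T cells, which also had more UMIs in all.

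**Figure D3:**
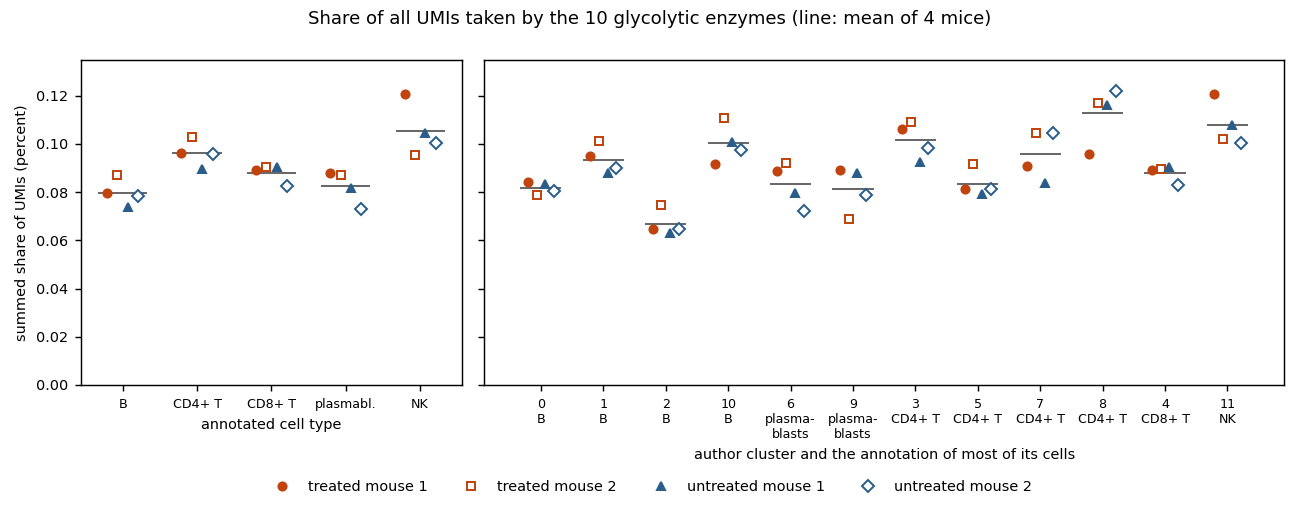
Percent of all UMIs from the 10 enzymes together (y axis, from 0) in each mouse, by annotated cell type on the left and by author cluster on the right, with lines at the mean of 4 mice. Cluster 2 of the B cells is lowest at 0.0669% and cluster 8 of the CD4+ T cells highest at 0.113%, a place that clusters 11 (0.199%) and 3 (0.179%) take over cluster 8 (0.168%) without ribosomal protein and mitochondrial genes in the total.

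The authors' clusters divided these types further, and since the clusters were built from the same counts their levels are given without a test. Among B cell clusters, the small cluster 10 had the highest mean summed share, 0.100% ± 0.0080 (SD, n = 4), above cluster 2 in 4 of 4 mice. Cluster 2 had the smallest, 0.0669% ± 0.0054, and cluster 1 had 0.0935% ± 0.0059. Of the larger clusters, cluster 1 was above cluster 0 and cluster 0 above cluster 2 in 4 of 4 mice. Gapdh in cluster 2 had 184.3 and 225.4 CPM in treated and 185.4 and 173.1 in untreated mice. In cluster 1 it had 291.6 and 318.2 in treated and 244.6 and 245.5 in untreated mice, and the 2 clusters did not overlap. Aldoa, Tpi1, Gapdh, Gpi1, Pgk1, Pkm and Ldha were each higher in cluster 1 than in cluster 2 in 4 of 4 mice, so the order was not carried by 1 gene. Ribosomal protein and mitochondrial genes moved with it, at 37.9 to 39.1% of the UMIs in cluster 1 and 24.9 to 25.6% in cluster 2, and their part in the order was not tested. With those genes left out of the total the shares were 0.152% and 0.0895%, and the order held.

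Cluster 10, a small B cell cluster of 80 cells with as few as 7 in 1 mouse, had the highest Gapdh among B cell clusters, at 330.3 and 417.6 CPM in treated and 377.9 and 331.0 in untreated mice. Its Eno1 was 64.5 and 171.2 CPM in treated and 126.0 and 120.4 in untreated mice. Gapdh in this cluster was above the highest value of cluster 1 in every mouse, while Eno1 varied widely.

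Among CD4+ T cell clusters, cluster 8 with 144 cells had the highest summed share, 0.113% ± 0.012, and cluster 5 the lowest, 0.0834% ± 0.0057. Without ribosomal protein and mitochondrial genes in the total cluster 3 was first, at 0.179% against 0.168% in cluster 8, and cluster 8 exceeded it in 2 of 4 mice. Ldha in cluster 8 had 141.6 and 238.1 CPM in treated and 193.9 and 166.1 in untreated mice. It was above each of the other CD4+ clusters in 4 of 4 mice, of which cluster 7 also carried CD8 markers (127 to 365 CPM per mouse). Cluster 5, with the lowest mean of the 4, had 126.4 and 134.7 CPM in treated and 124.1 and 96.1 in untreated mice. Gapdh in cluster 8 had 307.5 and 351.5 CPM in treated and 353.9 and 424.0 in untreated mice, above clusters 5 and 7 in 4 and cluster 3 in 3 of 4 mice. Cluster 8 held 137 cells annotated as CD4+ T cells, 6 as B cells and 1 as a CD8+ T cell. Monocyte markers (5 genes) had 195 UMIs in cluster 8 and 87 in all cells annotated as CD4+ T cells. Most of the 195 therefore lay outside its CD4+ T cells. These markers summed to 9.7 to 951 CPM per mouse in cluster 8, with the highest value in untreated mouse 2. That mouse also had the highest Gapdh, Eno1 (131.8 CPM) and summed share (0.122%) of the cluster, and treated mouse 2 the highest Ldha. The part of these markers in the levels was not tested. Hk1 in cluster 8 averaged 40.8 ± 14 CPM, against 21.7 ± 8.9 in cluster 3.

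Clusters 3 and 5 held most of the CD4+ T cells, and Gpi1, Gapdh and Pkm were each higher in cluster 3 in 4 of 4 mice. Gpi1 had 130.8 and 121.2 CPM in cluster 3 of the treated and 127.0 and 119.8 in that of the untreated mice, against 90.9 and 82.9 in treated and 98.6 and 75.2 in untreated mice in cluster 5. The clusters did not overlap in Gpi1. Gpi1 was lower in cluster 8 than in cluster 3 in 4 of 4 mice, although the summed share was higher in cluster 8 in 3 of 4, or in 2 of 4 without ribosomal protein and mitochondrial genes in the total.

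**Figure D4:**
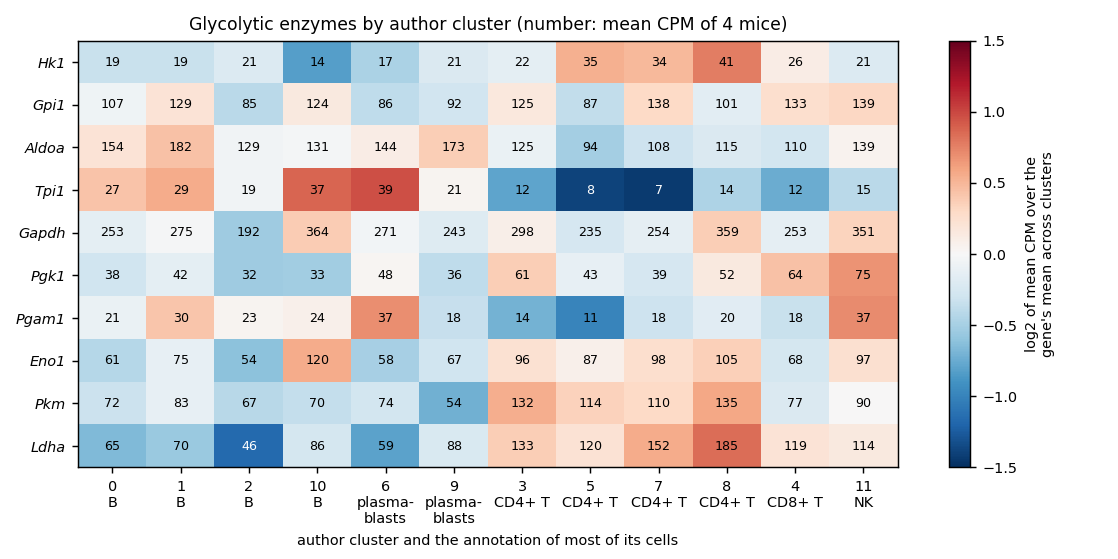
Mean CPM of 4 mice (numbers) of each enzyme in the 12 author clusters, coloured by the log2 ratio to the gene's own mean across clusters. Ldha and Pkm are red in the CD4+ clusters, with Ldha at 185 CPM in cluster 8, while Tpi1 is dark blue in clusters 5 and 7 and red in clusters 6 and 10.

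Across the 11 clusters with at least 10 cells in every mouse, Gapdh followed the summed level most closely (Pearson r = 0.94), being itself a part of it, and Tpi1 ran against it (r = -0.53). Among pairs, Eno1 and Pkm (r = 0.94) and Eno1 and Ldha (r = 0.90) were most alike and Tpi1 and Ldha most opposed (r = -0.84). The 5 genes outside the lists whose log2 CPM followed the summed level best, of 2904 genes compared, were the myosin light chain Myl12b (r = 0.96), Uqcrb, Cox7c and Atp5o of the respiratory chain and ATP synthase (r = 0.94 each) and Rnf7 (r = 0.92). These correlations describe 11 points that share libraries, and cluster sizes and depth differ between them.

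The treatment comparison asked whether blood cells of mice with a plasma-treated ear differed 120 min later. None of the enzymes was called in any type: B cells and CD4+ T cells had 0 of 10, CD8+ T cells and annotated plasmablasts 0 of the 9 tested, in edgeR and in DESeq2. Of all genes tested, the share called was 0% for B cells, 0% for CD4+ T cells, 0.0294% for CD8+ T cells and 0.0186% for plasmablasts. Tpi1 in CD8+ T cells and Hk1 in plasmablasts had too few counts to be tested. In the other lists of the pathway 0 genes were called in every type as well. The adjusted p-values of the enzymes were 0.56 or more, and 1, 0, 2 and 1 enzymes in these types had an unadjusted p under 0.05, beside 460, 415, 574 and 363 of all genes tested.

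Most fitted differences were above 0 and small. Treated mice had a higher fitted level of 9 of 10 enzymes in B as in CD4+ T cells, and of 7 of 9 in CD8+ T cells as in plasmablasts, while of all genes 5029 of 9903, 4430 of 8680, 3434 of 6798 and 2703 of 5372 were higher. The median log2 fold change of the enzymes was 0.10, 0.14, 0.11 and 0.20 in that order. Both treated mice were above both untreated mice in 3, 2, 2 and 4 enzymes, where 14.5%, 13.3%, 12.6% and 16.6% of all genes were, and below them in 1, 0, 1 and 0, where 20.2%, 21.9%, 26.1% and 20.1% were. The 4 types come from the same 4 mice, so these counts are not independent of each other. When each mouse gave the same number of cells of every author cluster, the median in B cells went to 0.0091, and the number with a higher fitted level was 7 of 10, 7 of 10, 5 of 9 and, with fewer enzymes tested, 5 of 7.

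**Figure D5:**
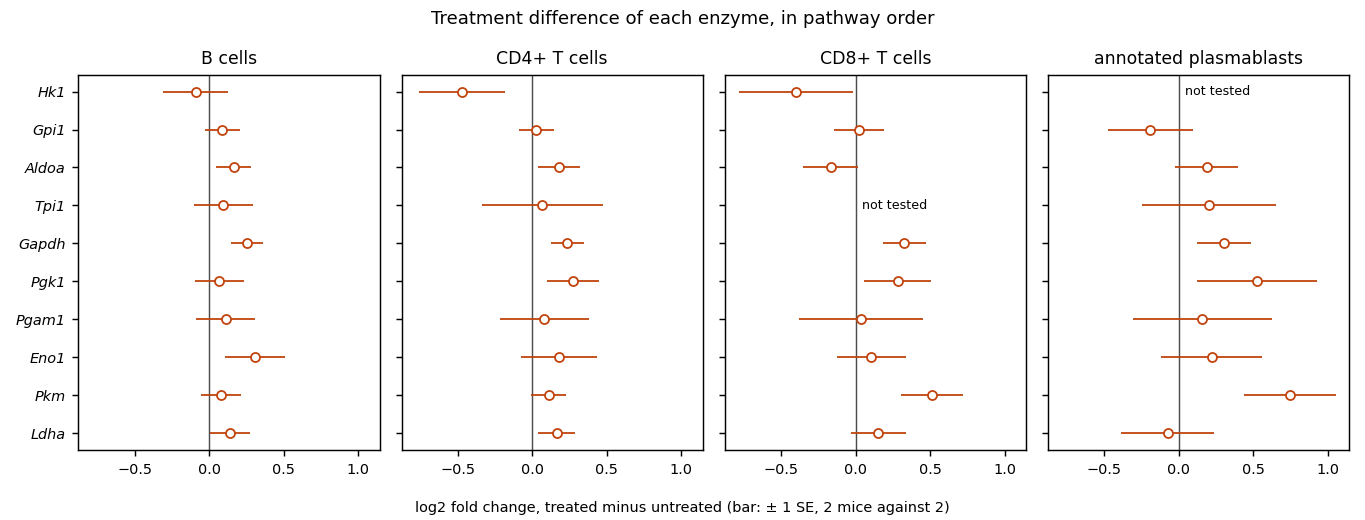
Log2 fold change of each enzyme between treated and untreated mice (x axis, bars ± 1 SE, 2 mice against 2) in 4 annotated cell types, with the enzymes in pathway order. Open symbols mark that none was called. Gapdh lies between 0.23 and 0.33 in all 4 panels, and Pkm at 0.51 in CD8+ T cells and 0.75 in plasmablasts.

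Gapdh had the smallest unadjusted p among the enzymes in B cells (log2 fold change 0.25 ± 0.11, adjusted p = 0.93). Its CPM in B cells, 239.8 and 275.2 in the treated against 219.8 and 222.7 in the untreated mice, did not overlap between the groups. The same held for CD4+ (289.4 and 304.5 against 240.9 and 281.8) and CD8+ T cells (265.9 and 279.0 against 241.8 and 223.9) and for plasmablasts (276.7 and 303.1 against 268.1 and 212.2). The fitted differences were 0.23 ± 0.11 for CD4+ and 0.33 ± 0.14 for CD8+ T cells and 0.30 ± 0.18 for plasmablasts, with adjusted p-values of 0.90, 0.56 and 0.79. With equal cells per cluster they were 0.083 for B cells, 0.24 for CD4+ and 0.16 for CD8+ T cells and 0.20 for plasmablasts. In annotated NK cells, not tested, 427.5 and 340.6 CPM in the treated overlapped 282.8 and 350.1 in the untreated mice.

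Pkm in plasmablasts had 91.2 and 80.3 CPM in the treated against 50.04 and 54.8 in the untreated mice, and in CD8+ T cells 83.6 and 93.6 against 69.5 and 64.8. The groups did not overlap in either type, and the fitted differences were 0.75 ± 0.31 (adjusted p = 0.71) and 0.51 ± 0.21 (adjusted p = 0.56). In B cells the difference was 0.083 ± 0.13, with 70.6 and 78.5 CPM against 69.8 and 74.2. The treatment difference was also compared between the 4 types in 1 fit, and in edgeR 0 of the 10 enzymes were called, against 0.0505% of all genes tested. The number with an unadjusted p under 0.05 was 0, and all 10 had an adjusted p of 1 in edgeR's quasi-likelihood test. DESeq2 was not run for this test.

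Hk1, which was called in no type, had the largest fitted decrease of the enzymes in CD4+ and CD8+ T cells. In CD4+ T cells it had 31.3 and 15.5 CPM in the treated against 31.1 and 37.4 in the untreated mice, a difference of -0.47 ± 0.29 (adjusted p = 0.91). In CD8+ T cells it had 28.8 and 14.4 against 39.3 and 20.5. The groups overlapped in both, and treated mouse 2 had the lowest value in each. In B cells 19.7 and 17.2 CPM in the treated lay just below 20.3 and 19.9 in the untreated mice. In plasmablasts, where it was not tested, 15.7 and 12.04 CPM lay below 21.4 and 20.5.

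Blood cells other than lymphocytes left uneven traces in the libraries. The 5 red blood cell markers summed to 3713.4 CPM in plasmablasts of untreated mouse 1 and to 13.7 CPM in those of untreated mouse 2, against 113.2 and 32.1 in the treated mice, and Hbb-bs was the only gene called there. Without that mouse the plasmablast differences were 0.50 for Gapdh and 0.70 for Pkm, and neither was called. The 5 platelet markers summed to 39.6 and 20.6 CPM in B cells of the treated and 20.8 and 12.4 in those of the untreated mice, and to 35.6 CPM in CD8+ T cells of treated mouse 1 against 0 to 1.8 in the other mice. Red blood cells and platelets carry glycolytic enzymes, and their part in the treatment differences was not tested. Permuting 2 mice against 2 could not bring a single value to 0.05, and with 1 library per mouse a difference between mice and 1 between libraries cannot be told apart.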

How the data were processed

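Peripheral blood mononuclear cells of 4 mice were profiled by droplet 3' single-cell RNA sequencing, 1 library per mouse. The authors aligned reads to mm10 with Cell Ranger 7.1.0, filtered and clustered cells with Seurat 4.3.0, and used SoupX for free RNA and DoubletFinder for doublets before annotating types; the sources used here do not say if the deposited counts carry the SoupX correction. The deposited table holds whole UMI counts per gene and cell, with the mouse, cluster and annotation of each cell, and no column of it was left unassigned (0 unused columns). No cell was filtered further and no doublet caller was run here. Cells were grouped by the labels into treated and untreated mice.

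UMIs were summed per mouse and annotated type (with a minimum of 20 cells per mouse, so not for annotated NK cells) or per author cluster (23692981 UMIs in all). Differences were fitted on the counts with edgeR 4.0.16 in R 4.3.3 (quasi-likelihood, TMM, filterByExpr, Benjamini-Hochberg, threshold 0.05): the treatment within each type, the types in 1 fit with the mouse as a block because each mouse gave all types, and the treatment difference between types in the same kind of fit. The fits were tested on simulated counts. Alternatives were DESeq2 1.42.0, other scalings, no filter on low counts, no block, cells thinned to 2000 UMIs (leaving out 224 shallower B cells, 17 CD4+ and 2 CD8+ T cells and 33 plasmablasts), equal cells per cluster and leaving out each mouse. Exact 95% intervals of ratios of counts cover counting error only.

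The 10 enzymes are named in every comparison, and of each other list up to 4 genes with the smallest p in a contrast, the paralogs, and the 5 genes most correlated with the summed level over clusters with at least 10 cells per mouse (at least 50 CPM on average, log2 of CPM plus 1). The members and lists were chosen with earlier results of these data known. Motifs were counted on both strands of the 250 bases before each RefSeq start.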

Additional observations from a re-analysis of the deposited data

How the results depend on the processing

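With 2 mice per group, low counts of Tpi1, Pgam1 and Hk1 and types that the authors derived from the same counts, small differences cannot be resolved. In each alternative run, 0 enzymes were called for the treatment or for its difference between types, and Ldha, Tpi1, Pkm, Pgk1, Pgam1, Eno1, Aldoa and Gapdh kept their CD4+ against B cell calls, while that of Hk1 was lost with thinned cells (0.54); the cause of the changes listed next was not tested. Against B cells, CD8+ T cells had 3 enzymes called higher with total UMIs only and with thinned cells, and 1 lower in DESeq2, without ribosomal and mitochondrial UMIs, without the replicate block (1 called lower) and with thinned cells (1 to 2 leaving out a mouse). Against CD4+ T cells they had 0 called higher with total UMIs only or thinned cells, and 1 lower in DESeq2, without the replicate block and with thinned cells (1 to 2 leaving out a mouse). Plasmablasts had 0 called lower with total UMIs only or thinned cells (0 to 1 leaving out a mouse). Of all genes, 0, 0, 2 and 1 were called for the treatment in B, CD4+ T and CD8+ T cells and plasmablasts, against 21, 11, 11 and 13 with no filter on low counts and 10 to 16, 0, 6 to 16 and 3 to 13 leaving out a mouse. The summed share without ribosomal and mitochondrial UMIs was 0.116% in B cells, 0.157% in CD4+ and 0.155% in CD8+ T cells, 0.110% in plasmablasts and 0.194% in NK cells.

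With equal cells per cluster the treatment median in B cells was 0.0091, and these uncalled log2 differences changed sign: in B cells Ldha (-0.051), Aldoa (-0.0069), Pkm (-0.041) and Hk1 (0.014), in CD4+ T cells Gpi1 (-0.085) and Pgam1 (-0.028), and in CD8+ T cells Gpi1 (-0.049) and Pgam1 (-0.054). With total UMIs only the same held for Gpi1 in CD4+ T cells (-0.023) and for Gpi1 (-0.074) and Pgam1 (-0.058) in CD8+ T cells. Leaving out a mouse moved the treatment median from 0.068 to 0.17 for B cells, 0.061 to 0.23 for CD4+ T cells and 0.16 to 0.35 in plasmablasts, and the number of enzymes higher in CD8+ T cells from 4 to 8. Signs changed within these ranges: in B cells Eno1 -0.015 to 0.65, Tpi1 -0.042 to 0.21, Pkm -0.020 to 0.18 and Pgk1 -0.024 to 0.15; in CD4+ T cells Eno1 -0.18 to 0.65, Tpi1 -0.36 to 0.69 and Gpi1 -0.027 to 0.087; in CD8+ T cells Eno1 -0.20 to 0.44, Gpi1 -0.058 to 0.078, Ldha -0.048 to 0.35, Aldoa -0.41 to 0.072, Hk1 -0.89 to 0.11 and Pgam1 -0.34 to 0.42; in plasmablasts Eno1 -0.053 to 0.59, Gpi1 -0.55 to 0.27, Ldha -0.28 to 0.16 and Pgam1 -0.12 to 0.49.

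Between CD8+ and CD4+ T cells, uncalled differences changed sign for Aldoa (-0.061 with total UMIs only, -0.057 thinned, -0.054 to 0.17 leaving out a mouse), Pgls (-0.069 thinned), Taldo1 (0.025 thinned), Hk1 (-0.29 to 0.15), Gapdh (-0.072 to 0.039) and Rpe (-0.075 to 0.29). Between plasmablasts and B cells they did for Aldoa (0.018) and Slc2a3 (0.015) with total UMIs only and for Ldhb (-1.91 to 1.45) and Bpgm (-0.083 to 0.14) leaving out a mouse.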
